A study of Mus musculus with 12 samples.

Results

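The integrated stress response genes described here are 10 genes of the mouse liver: Atf4, Atf3, Ddit3, Trib3, Chac1, Sesn2, Ddit4, Fgf21, Gdf15 and Ppp1r15a. They were chosen on measured values of these same livers in the same comparisons. Their levels and differences are therefore a description, with no test. They are 10 of the 24296 gene symbols in the deposited table and 10 of the 13158 genes whose mean level over the 12 livers was at least 0.5 FPKM, the filter used for testing. No member passed this filter through any 1 group alone. FPKM counts the sequenced fragments of a transcript relative to its length and to the depth of the library, and the level of a gene is the sum over all of its transcripts in the table.

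Whole livers of male C57/BL6N mice were sequenced, with 3 livers in each of 4 groups. The control group is labelled as WT, and no vehicle is given for it. The model group received CCl4 in olive oil into the peritoneum over 8 weeks, with 2 injections of 5 mL/kg in each, a treatment that damages hepatocytes and leads to fibrosis. The silibinin group and the phloridzin group received the same CCl4 and, from week 5, the drug that names the group. Silibinin is a flavonolignan of milk thistle, and phloridzin is a glucoside of the dihydrochalcone phloretin that blocks sodium-coupled glucose transport. The drugs were given at different doses, and the phloridzin group is the study's high-dose group. Ages are not given. The control libraries held 105.2 to 109.6 M fragments (median 108.4 M) and the model libraries 83.7 to 101.5 M (median 100.1 M). The silibinin libraries held 106.7 to 110.9 M (median 110.1 M) and the phloridzin libraries 98.5 to 104.7 M (median 102.1 M). Albumin (Alb), made by hepatocytes, was the most abundant of 6 hepatocyte markers in every group, with 12700 ± 2543 FPKM in control, 19100 ± 5330 in model, 22260 ± 7991 in silibinin and 19480 ± 3148 in phloridzin livers (SD, n = 3 each).

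The integrated stress response is a shared answer of cells to stress. Kinases that sense unfolded protein in the endoplasmic reticulum, lack of amino acids, double-stranded RNA or lack of heme phosphorylate the translation factor eIF2, which lowers protein synthesis in general and favors translation of a few messengers, among them that of ATF4. ATF4, a basic leucine zipper (bZIP) transcription factor, activates genes for amino acid supply and tRNA charging, further transcription factors such as ATF3 and CHOP (the product of Ddit3), and feedback genes that restore translation. In liver, the secreted factors FGF21 and GDF15 are also made in this response.

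As ATF4 and ATF3 act by binding DNA, the start regions of the members were searched for 2 motifs known to bind factors of this pathway. All 10 members were found in the RefSeq promoter table of build GRCm38.p6, with 11 windows that run from 250 bases before to 50 bases after a start, 300 bases each. The first motif is TGATGCAA, read on either strand (TTGCATCA in reverse), the core of the composite element bound by pairs of C/EBP and ATF factors. It was found in the windows of Atf3, Chac1 and Fgf21, and in 294 of all 32851 windows (0.895%). The other motif is TGACGTCA, its own reverse complement, the cAMP response element. It was found in the window of Ppp1r15a and in 588 of all windows (1.79%). The motifs lie 110 bases before the start in Atf3, 193 in Chac1, 139 in Fgf21 and 12 in Ppp1r15a, counted on the strand of the gene. A match is a description of letters and not a site, and the lack of one in the other members says only that these letters are not in the window. The 4 windows with a match are shown 5′ to 3′ in the direction of transcription, with the motif in capitals. They lie at chr1:191183284-191183583 on the minus strand for Atf3, chr2:119350992-119351291 on the plus strand for Chac1, chr7:45615441-45615740 on the minus strand for Fgf21 and chr7:45526219-45526518 on the minus strand for Ppp1r15a.
Atf3: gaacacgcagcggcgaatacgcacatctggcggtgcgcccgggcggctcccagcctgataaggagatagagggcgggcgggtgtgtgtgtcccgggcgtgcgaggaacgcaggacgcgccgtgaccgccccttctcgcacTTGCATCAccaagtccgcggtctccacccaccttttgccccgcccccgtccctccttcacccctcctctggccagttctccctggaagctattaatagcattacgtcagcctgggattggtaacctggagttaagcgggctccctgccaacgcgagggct
Chac1: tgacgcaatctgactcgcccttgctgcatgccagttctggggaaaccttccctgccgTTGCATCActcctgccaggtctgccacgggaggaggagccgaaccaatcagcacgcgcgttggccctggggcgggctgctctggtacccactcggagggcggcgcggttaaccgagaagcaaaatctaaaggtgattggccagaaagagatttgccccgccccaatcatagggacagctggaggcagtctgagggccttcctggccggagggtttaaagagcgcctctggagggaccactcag
Fgf21: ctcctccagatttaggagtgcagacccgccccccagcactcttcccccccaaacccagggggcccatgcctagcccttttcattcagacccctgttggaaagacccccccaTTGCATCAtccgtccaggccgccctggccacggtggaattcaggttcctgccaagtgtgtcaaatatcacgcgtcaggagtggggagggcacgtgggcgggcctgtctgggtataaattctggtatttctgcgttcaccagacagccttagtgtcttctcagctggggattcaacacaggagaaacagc
Ppp1r15a: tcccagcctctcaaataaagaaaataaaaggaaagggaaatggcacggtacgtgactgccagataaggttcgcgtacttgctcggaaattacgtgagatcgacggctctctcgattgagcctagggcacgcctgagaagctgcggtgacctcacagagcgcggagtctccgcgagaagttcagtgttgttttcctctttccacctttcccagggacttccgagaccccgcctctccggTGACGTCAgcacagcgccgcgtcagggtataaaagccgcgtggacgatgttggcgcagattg

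The first question was how far the stress response genes were raised in livers with CCl4 fibrosis. In the model group, Atf3 stood at 45.2 ± 4.33 FPKM against 0.306 ± 0.0567 in control livers (SD, n = 3 each), a ratio of 148. For Fgf21 the ratio of the means was 28.9, or 18.3 without model 3, and for Ddit3 and Trib3 it was 26.2 and 11.5. The ratio was 5.65 for Ppp1r15a, 4.41 for Gdf15, 3.43 for Chac1, 2.89 for Ddit4, 2.85 for Atf4 and 1.60 for Sesn2. The second question was whether these levels were lower with a drug. With silibinin or phloridzin, the means of all 10 genes were below the model mean, and Atf3 was at 4.13% and 4.61% of it. As only whole liver was sequenced, a change in the share of a cell type and a change in RNA per cell cannot be told apart.

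**Figure D1:**
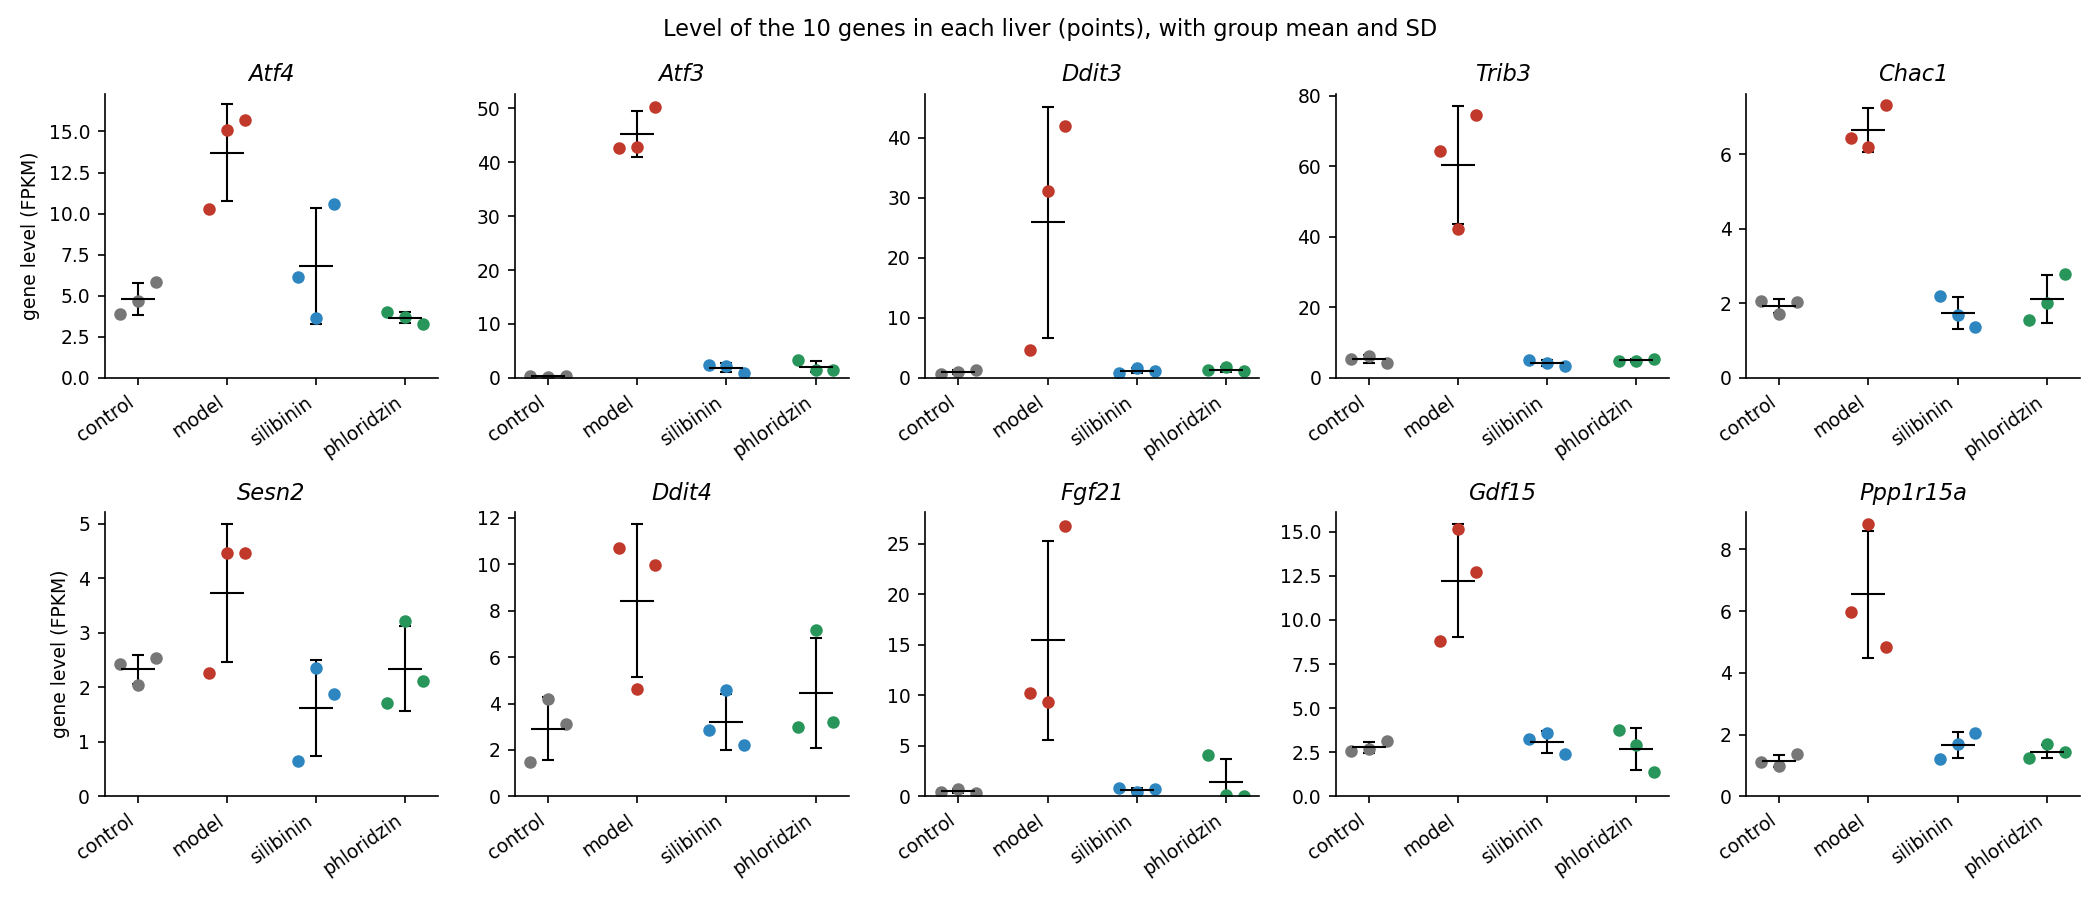
Level of the 10 genes in each liver, in FPKM (vertical axes, which start at 0 and differ between genes), by group (horizontal axes). Points are livers, the long bar is the group mean and the error bars are the SD, n = 3 per group. In the panel of Atf3, the model livers lie between 42.6 and 50.2 FPKM and the other 9 livers at or below 3.24 FPKM, while the groups overlap in the panel of Sesn2.

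Atf3 is a bZIP repressor and activator that is induced early in stress and injury. It lies on chr1:191170296-191218039 on the minus strand of build GRCm38. Its level was 0.326, 0.242 and 0.350 FPKM in the control livers, 42.6, 42.8 and 50.2 FPKM in the model livers, 2.43, 2.24 and 0.934 FPKM in the silibinin livers and 3.24, 1.50 and 1.51 FPKM in the phloridzin livers. The model livers were far above all others, and every drug-treated liver was still above every control liver. The control values rest on 52 to 76 fragments per library and the model values on 6944 to 9914, so counting error is small beside these differences. On the scale of log2(FPKM + 1), model minus control was 5.14 ± 0.25 (SE), silibinin minus model -4.05 ± 0.25 and phloridzin minus model -3.95 ± 0.25. Adding 1 shrinks the difference for levels near or under 1 FPKM, which is why the ratio of the means is given as well.

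Atf4 (chr15:80255184-80257541, plus strand) encodes the factor whose translation opens the program. Its level was 3.89, 4.66 and 5.84 FPKM in control livers, 10.3, 15.1 and 15.7 FPKM in model livers, 6.17, 3.63 and 10.6 FPKM in silibinin livers and 4.01, 3.72 and 3.29 FPKM in phloridzin livers. Model livers were above all control and all phloridzin livers, while silibinin 3 reached the level of model 1. The log2 difference was 1.33 ± 0.29 (SE) for model minus control, -0.99 ± 0.29 for silibinin minus model and -1.63 ± 0.29 for phloridzin minus model. The amount of ATF4 protein is set mainly by translation and was not measured here.

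Ddit3 (chr10:127290774-127296288, plus strand) encodes CHOP, a bZIP factor of the late, death-prone phase of the response. Its level was 0.702, 0.991 and 1.27 FPKM in control livers, 4.58, 31.1 and 42.0 FPKM in model livers, 0.754, 1.57 and 1.17 FPKM in silibinin livers and 1.25, 1.84 and 1.07 FPKM in phloridzin livers. The model livers were above all others but differed widely among themselves, with model 1 far below model 2 and model 3. On the log2 scale, model minus control was 3.32 ± 0.59 (SE), silibinin minus model -3.21 ± 0.59 and phloridzin minus model -3.06 ± 0.59. Without model 1, the first of these was 4.23.

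The feedback genes come next. Trib3 (chr2:152337422-152344032, minus strand) encodes a pseudokinase that binds ATF4 and AKT. Its level was 64.4, 42.1 and 74.5 FPKM in model livers, against 5.41, 6.31 and 4.09 FPKM in control livers. The silibinin livers had 5.00, 4.25 and 3.43 FPKM and the phloridzin livers 4.70, 4.89 and 5.36 FPKM, which overlap with the control livers. The log2 difference was 3.27 ± 0.21 (SE) for model minus control, -3.53 ± 0.21 for silibinin minus model and -3.32 ± 0.21 for phloridzin minus model.

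Ppp1r15a (chr7:45522916-45526268, minus strand) encodes GADD34, which directs a phosphatase to eIF2 and so restores translation. Its level was 1.10, 0.999 and 1.37 FPKM in control livers, 5.97, 8.82 and 4.83 FPKM in model livers, 1.21, 1.71 and 2.05 FPKM in silibinin livers and 1.24, 1.69 and 1.43 FPKM in phloridzin livers. All model livers were above all others, and both drug groups overlapped with the control group. For Ppp1r15a, the log2 difference was 1.78 ± 0.20 (SE) for model minus control, -1.49 ± 0.20 for silibinin minus model and -1.59 ± 0.20 for phloridzin minus model.

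Of the members that act on glutathione and growth signals, Chac1 (chr2:119351229-119354381, plus strand) encodes an enzyme that breaks down glutathione. Its level was 2.07, 1.72 and 2.03 FPKM in control livers, 6.44, 6.20 and 7.33 FPKM in model livers, 2.19, 1.69 and 1.35 FPKM in silibinin livers and 1.54, 2.00 and 2.80 FPKM in phloridzin livers. The model livers were tightly grouped above all others. The log2 difference was 1.38 ± 0.17 (SE) for model minus control, -1.49 ± 0.17 for silibinin minus model and -1.31 ± 0.17 for phloridzin minus model.

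Sesn2 (chr4:132492032-132510501, minus strand) encodes a leucine-binding protein that holds back mTORC1, the growth kinase complex. Its level was 2.43, 2.04 and 2.54 FPKM in control livers, 2.27, 4.47 and 4.46 FPKM in model livers, 0.642, 2.35 and 1.88 FPKM in silibinin livers and 1.71, 3.21 and 2.12 FPKM in phloridzin livers. The groups overlapped in each comparison, since model 1 lay among the control livers. These levels gave log2 differences of 0.47 ± 0.29 (SE) for model minus control, -0.87 ± 0.29 for silibinin minus model and -0.49 ± 0.29 for phloridzin minus model. Without model 1, the 3 differences were 0.72, -1.12 and -0.73, the second of which is past the cutoffs used for calling genes, and without silibinin 1 silibinin minus model was -0.57. Median-ratio scaling, described below, brought model minus control of Sesn2 to 0.14, and voom, a count-based weighting in limma, brought silibinin minus model to -1.34 without a call.

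Ddit4 (chr10:59949669-59951834, minus strand) encodes REDD1, which also restrains mTORC1. Its level was 1.47, 4.18 and 3.10 FPKM in control livers, 10.7, 4.64 and 9.98 FPKM in model livers, 2.84, 4.57 and 2.24 FPKM in silibinin livers and 2.98, 7.17 and 3.19 FPKM in phloridzin livers. Model livers were above control livers and, by a narrow margin for model 2, above silibinin livers, and phloridzin 2 was above model 2. For Ddit4, the log2 difference was 1.26 ± 0.39 (SE) for model minus control, -1.13 ± 0.39 for silibinin minus model and -0.80 ± 0.39 for phloridzin minus model.

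The secreted factors are Fgf21 and Gdf15. Fgf21 (chr7:45613886-45615490, minus strand) encodes a hormone that the liver releases in fasting and protein lack. Its level was 0.480, 0.776 and 0.346 FPKM in control livers, 10.2, 9.33 and 26.8 FPKM in model livers and 0.808, 0.455 and 0.735 FPKM in silibinin livers. The phloridzin livers stood apart from each other, with 4.05 and 0.161 FPKM in phloridzin 1 and phloridzin 2, from 393 and 16 fragments, and a value listed at 0 in phloridzin 3. For a transcript of 951 bases in that library, 3 fragments would be 0.0320 FPKM, which is a limit for counting error only. A listed 0 need not be a true absence, because some widely used genes are listed low in this table. Gapdh ranged from 0.152 to 12.6 FPKM over the 12 livers (median 2.52), Ttr from 10.3 to 2530 FPKM, and Actb from 206 to 543 FPKM. These 3 genes were looked at after the values had been seen. Among the genes tested, 281 are listed at 0 in at least 1 liver. The log2 difference of Fgf21 was 3.28 ± 0.55 (SE) for model minus control, -3.15 ± 0.55 for silibinin minus model and -3.03 ± 0.55 for phloridzin minus model. The last of these depends on how values near 0 are treated, with -4.85 at a pseudocount of 0.1 and -6.46 with voom.

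Gdf15 (chr8:70629393-70632456, minus strand) encodes a stress hormone that acts on appetite through a receptor of the hindbrain. Its level was 2.55, 2.66 and 3.11 FPKM in control livers, 8.83, 15.1 and 12.7 FPKM in model livers, 3.24, 3.59 and 2.40 FPKM in silibinin livers and 3.75, 2.94 and 1.39 FPKM in phloridzin livers. All model livers were above all others, and both drug groups spread around the control level. The log2 difference was 1.78 ± 0.26 (SE) for model minus control, -1.68 ± 0.26 for silibinin minus model and -1.87 ± 0.26 for phloridzin minus model.

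**Figure D2:**
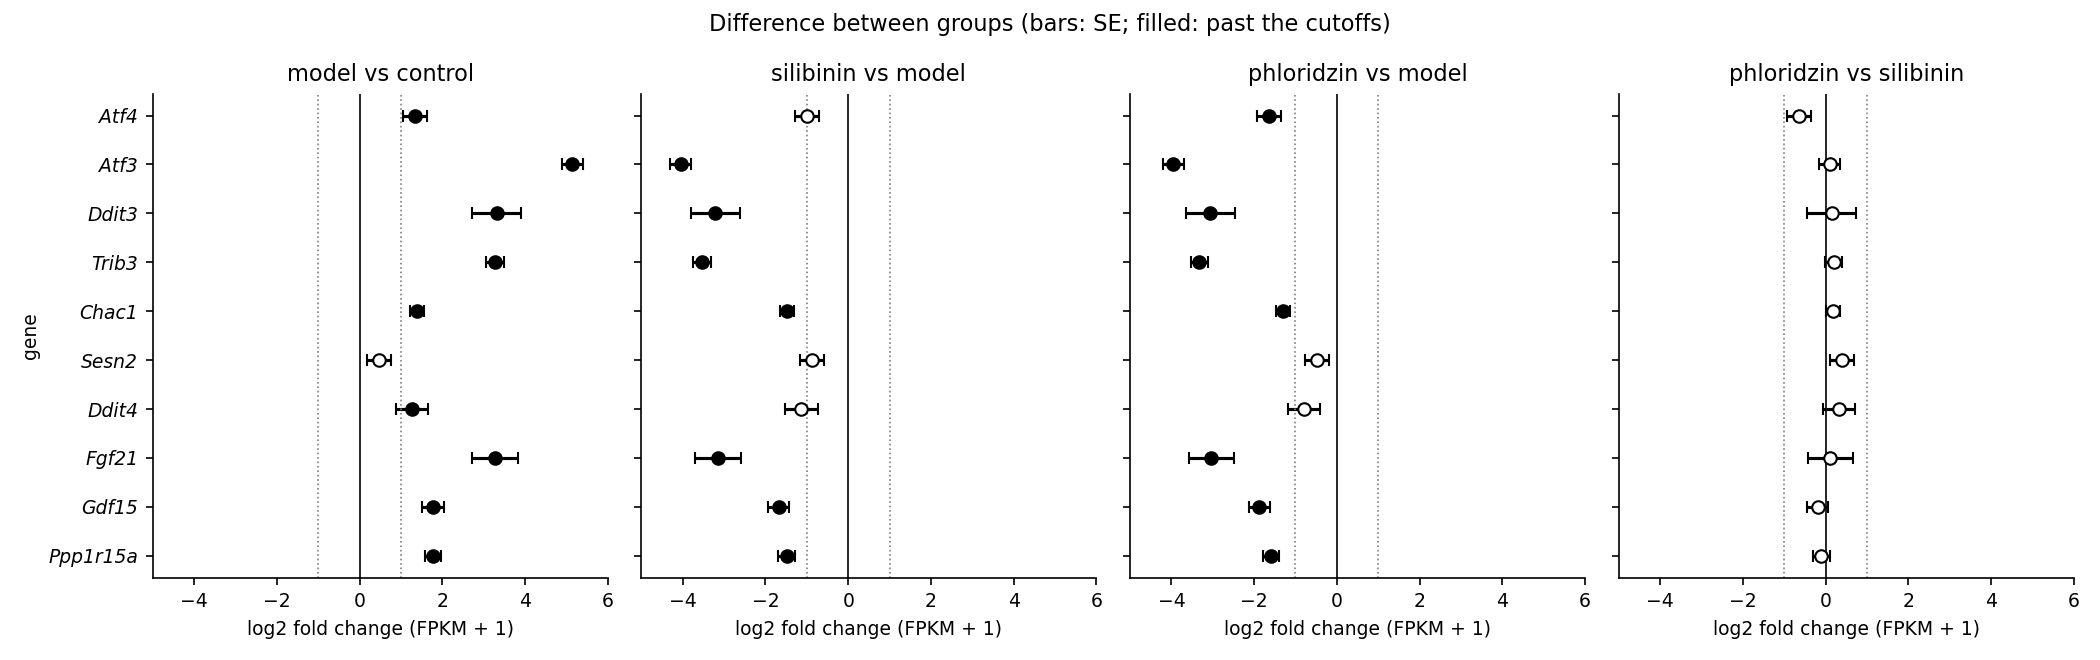
Differences of the 10 genes (vertical axis) in 4 comparisons (panels), as log2 fold change of FPKM + 1 (horizontal axis). Bars are the SE of the fit, dotted lines mark 1 and -1, and filled points are past the cutoffs of the call. Atf3 lies farthest from 0 in the first panel at 5.14, and all points of the last panel lie between -0.64 and 0.39.

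The order of the members by level changed between groups. In control livers, Trib3 (5.27 ± 1.11 FPKM) and Atf4 (4.80 ± 0.981 FPKM) had the highest means and differed by less than their spread. Atf3 had the lowest, below Fgf21 (0.534 ± 0.220 FPKM), and these also lie close together (SD, n = 3). In model livers, Trib3 (60.3 ± 16.6 FPKM) and Atf3 (45.2 ± 4.33 FPKM) led and differed by no more than the spread of Trib3. Ddit3, Fgf21, Atf4 and Gdf15 followed at 25.9 ± 19.2, 15.4 ± 9.83, 13.7 ± 2.95 and 12.2 ± 3.19 FPKM, and these cannot be ranked within their spread (SD, n = 3). Ddit4 (8.43 ± 3.31 FPKM), Chac1 (6.65 ± 0.595 FPKM) and Ppp1r15a (6.54 ± 2.05 FPKM) were close, and Sesn2 (3.73 ± 1.27 FPKM) was lowest.

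A gene was called at a Benjamini-Hochberg adjusted p under 0.05 in limma if its log2 fold change was also past 1 or -1, the cutoffs of the study's methods. In the model group against the control group, 9 of the 10 members were called higher and 0 lower, where 9.42% of all genes tested were called higher and 1.08% lower. The member outside is Sesn2. In the silibinin group against the model group, 7 members were called lower and 0 higher, where 3.25% of all genes were called lower and 0.745% higher. The 3 outside are Atf4, Sesn2 and Ddit4. In the phloridzin group against the model group, 8 members were called lower and 0 higher, where 2.92% of all genes were called lower and 0.6% higher. Sesn2 and Ddit4 are outside. Since the choice of members used these comparisons, nothing is read from these counts. Both drug comparisons share the same 3 model livers, so a low or high value in a model liver enters each of them.

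The groups were also compared liver by liver. For 9 members, all model livers were above all control livers, as for 45.1% of all genes tested. For 8 members, all silibinin livers were below all model livers, as for 27.8% of all genes, with Atf4 and Sesn2 as the exceptions. For 8 members, all phloridzin livers were below all model livers, as for 22.4% of all genes, with Sesn2 and Ddit4 as the exceptions. The median log2 difference over the 10 members was 1.78 for model minus control, -1.58 for silibinin minus model and -1.75 for phloridzin minus model. Over all genes tested, the medians were 0.338, -0.153 and -0.110. When levels were scaled by median ratios between livers, those medians became 0.0148, 0.0058 and 0.0248. Under this scaling, Atf4 and Ddit4 were no longer called in the model group, with log2 differences of 0.94 and 0.90, and 7 members were.

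Some calls of members rest on a single liver or setting. Ddit4 lost its call in the model group without control 1 (log2 difference 0.96), without control 3 (1.33), without model 1 (1.07), without model 3 (1.12) and with no filter on low values (1.26). Atf4 gained a call with silibinin without model 1 (-1.17), without silibinin 3 (-1.33) and with voom on fragment numbers recovered from FPKM (-1.12). Ddit4 gained one with silibinin without model 2 (-1.46). With only the phloridzin and model livers in the fit, Ddit3 and Fgf21 were not called, at the same log2 differences of -3.06 and -3.03.

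Next, the drug groups were set against the control group, as levels only. Atf3 was 6.11 times the control mean with silibinin and 6.81 times with phloridzin, and it was the only member of which all livers of both drug groups were above all control livers. That is 1 of 10 members with each drug, where 26.4% of all genes tested had all silibinin livers above all control livers and 26.8% had all phloridzin livers above them. The other 9 members overlapped with the control group under both drugs. With silibinin, their means were between 0.696 (Sesn2) and 1.43 (Ppp1r15a) times the control mean. With phloridzin, leaving out Fgf21 with its listed 0, they were between 0.766 (Atf4) and 1.52 (Ddit4) times the control mean. Fgf21 was at 2.63 times the control mean with phloridzin, a value that rests on single livers. It was 0.15 times without phloridzin 1 and 3.94 times without phloridzin 3.

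The third question was whether the drugs differed from each other. They were given at different doses, so this is a comparison of the groups and not of the compounds at a matched dose. In the phloridzin group against the silibinin group, 0 of the 10 members were called by limma in either direction, where 0.0076% of all genes tested were called higher and 0.0152% lower. At an unadjusted p under 0.05, the count was also 0 of 10 members and 494 of all 13158 genes, and voom called 0 members as well. With all livers, the widest gap was that of Atf4, with a log2 difference of -0.64 and a 95% interval from -1.28 to 0.00. It rests on single livers, as it was -0.30 without silibinin 3, less than the 0.49 of Sesn2 there, and -0.97 without silibinin 2. Likewise, Fgf21 went from 0.12 to -0.62 without phloridzin 1. For Atf3, phloridzin minus silibinin was 0.10, with an interval from -0.45 to 0.65, and it turned to -0.16 without silibinin 3 and to -0.15 without phloridzin 1. The intervals ran from -0.27 to 0.68 for Trib3, -0.20 to 0.55 for Chac1, -0.76 to 0.38 for Gdf15 and -0.54 to 0.33 for Ppp1r15a. They were wider for Sesn2 (-0.25 to 1.03), Ddit4 (-0.54 to 1.19), Ddit3 (-1.17 to 1.46) and Fgf21 (-1.11 to 1.35). As the members were chosen on these livers, the counts and intervals describe the spread between livers and are no test of a difference or of its absence. The median difference over the members was 0.13, and that over all genes 0.03.

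The genes called between the drugs were 3, none of them in the pathway, and they are named after their values had been seen. Klhdc7a had 3.47, 1.81 and 2.61 FPKM in phloridzin livers and is listed at 0 in all other livers. It passed the filter through the phloridzin group alone, so its call says no more than these values. Pcgf6 was at 0.692 ± 0.0116 FPKM with phloridzin and 3.91 ± 0.329 FPKM with silibinin (SD, n = 3 each). Wdr89 was at 0.138 ± 0.208 FPKM with phloridzin and 2.12 ± 0.193 FPKM with silibinin (SD, n = 3 each). With only the livers of the drug groups in the fit, 0 genes were called.

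The levels of Atf3, Ddit3 and Atf4 were then split by transcript. In model livers, 91.9% to 94.5% of the Atf3 level came from the main transcript, Atf3-201. A second coding transcript, Atf3-203, starts 34699 bases farther upstream. It had 2.53, 2.29 and 2.46 FPKM in the model livers, from 403 to 470 fragments, and is listed at 0 in the other 9 livers. A short processed transcript, Atf3-202, had 0.925, 0.667 and 0.309 FPKM in model livers and is also listed at 0 elsewhere. In model livers Atf3-203 made up 4.9% to 5.9% of the gene. In control livers such a share would be 2.4 to 4.3 fragments per library, around the limit of 3 used here, and in the drug-treated livers 9.6 to 37.4 fragments.

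The spread of Ddit3 among model livers sits in its coding transcripts. Ddit3-201 had 0.0134 FPKM in model 1, from 1 fragment, against 23.3 and 35.3 FPKM in model 2 and model 3, from 2105 and 3150 fragments. A transcript with a retained intron, Ddit3-202, was at 4.56, 6.50 and 5.67 FPKM in the same livers, between 0.520 and 0.980 FPKM in control livers, 0.522 and 1.42 FPKM in silibinin livers and 0.769 and 1.22 FPKM in phloridzin livers. Thus Ddit3-202 was higher in each of the 3 model livers, whereas Ddit3-201 was high in model 2 and model 3. With coding transcripts alone, a setting chosen after the data had been seen, Ddit3 was not called in any comparison, at log2 differences of 3.07, -2.93 and -2.87. How fragments are divided between transcripts that share exons is an estimate, and the library kit is given with no word on strand. On the other strand, a noncoding transcript with no gene symbol, NONMMUT008078.2, overlaps with Ddit3 by 3315 bases and was at 0.393 ± 0.276 FPKM in control and 1.15 ± 0.501 FPKM in model livers (SD, n = 3 each). It was at 0.0859 ± 0.0511 FPKM in silibinin and 0.108 ± 0.0319 FPKM in phloridzin livers (SD, n = 3 each). The 3′ end of Ddit3 overlaps with Mars by 63 to 68 bases on the other strand, and Ppp1r15a overlaps with Tulp2 by 12 to 717 bases.

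Atf4 showed a like pattern. Its retained-intron transcript, Atf4-203, was at 6.45, 5.67 and 6.21 FPKM in model livers. The range was 1.86 to 3.42 FPKM in control, 2.69 to 3.04 FPKM in silibinin and 2.49 to 3.13 FPKM in phloridzin livers, with no overlap with the model group. The coding transcript Atf4-201 varied from 0.236 to 9.47 FPKM over the 12 livers. It reached 7.89 FPKM in silibinin 3, the liver that made the silibinin and model groups overlap. For Atf4 too, the call in the model group was lost with coding transcripts alone, at a log2 difference of 1.39.

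**Figure D3:**
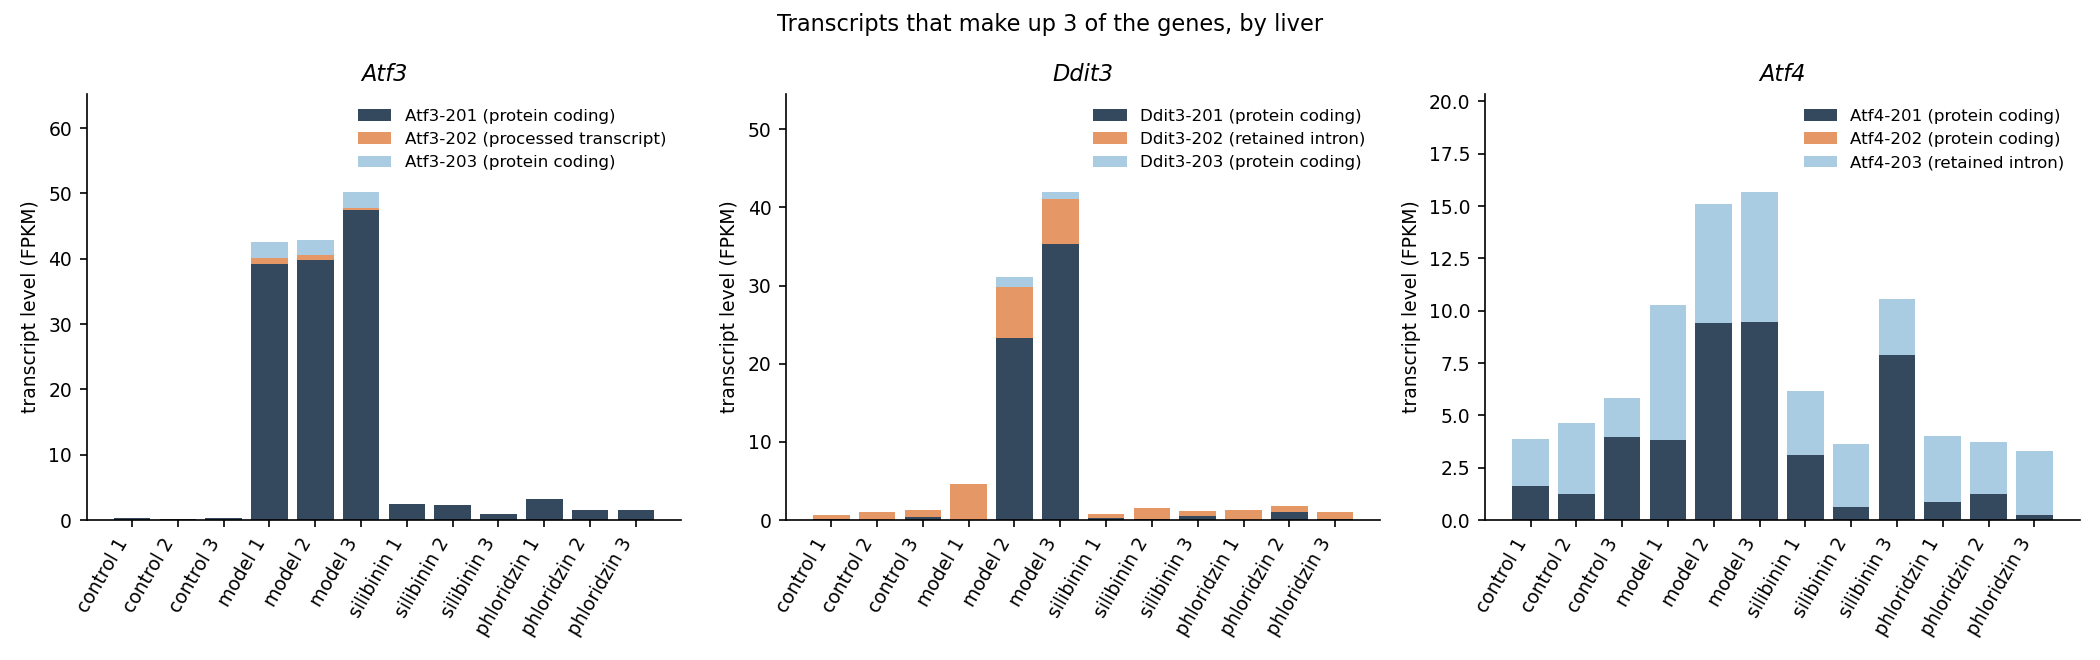
Level of each transcript of Atf3, Ddit3 and Atf4 in FPKM (vertical axes, from 0), stacked in 1 bar per liver (horizontal axes). The dark part of the Ddit3 bar is missing in model 1, where Ddit3-201 has 0.0134 FPKM, and stands at 23.3 and 35.3 FPKM in model 2 and model 3.

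The other genes of the pathway were taken from 9 lists by role, with 113 genes, of which 112 were in the table and 104 passed the filter. The list of receptors lacks Gfral, which has no entry. Eif2s1, Psph, Pycr1, Stc2, Vldlr, Adm2, Ret and Ggt1 were too low to be tested, and Phgdh, Aldh1l2, Slc7a11, Slc7a1, Nupr1 and Tnfrsf10b passed through the model group alone and Ppargc1a through the silibinin group alone. A gene that passes only through the group where it is high had to differ, so these 7 are left out of the counts that follow. This leaves 97 genes, to be read against the 12728 genes of the table that need no single group to pass. The lists were written with earlier results of these data known, so their counts and p-values are a description and not an independent test. In the model group, 25 of the 97 rose and 1 fell (25.8% and 1.03%), where 9.4% and 1.06% of all such genes did. With silibinin, 1 rose and 21 fell against the model group (1.03% and 21.6%), where 0.77% and 3.13% of all such genes did. With phloridzin the counts were also 1 and 21, where 0.613% and 2.79% did. In the phloridzin group against the silibinin group, limma called 0 of 97, with 2 at an unadjusted p under 0.05 (2.06%, where 3.7% of all such genes had one), and voom called 0. The median log2 difference over the 97 genes was 0.56 for model minus control, -0.47 for silibinin minus model, -0.40 for phloridzin minus model and 0.05 between the drugs. With median-ratio scaling, 11 rose and 2 fell in the model group (all such genes 3.88% and 3.49%), 1 rose and 13 fell with silibinin (1.48% and 1.74%), and 1 rose and 13 fell with phloridzin (1.09% and 1.7%). Of all genes called in the model group, 89.7% were higher as deposited and 53.9% after this scaling. For silibinin against model these shares were 18.6% and 44.0%, and for phloridzin against model 17.1% and 36.8%.

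Among 18 kinases and parts of the eIF2 machinery, Eif2ak3 rose in the model group. This is 5.56% of the list, below the 9.4% of all genes, so it is a result about that gene and not about the list. Eif2ak3 and Dnajc3 fell with each drug (11.1%, where 3.13% and 2.79% of all genes fell). Eif2ak3 encodes PERK, the kinase of the endoplasmic reticulum. It was at 5.04 ± 1.36 FPKM in control, 15.3 ± 1.31 in model, 4.89 ± 0.128 in silibinin and 5.75 ± 0.327 in phloridzin livers (SD, n = 3 each). Its log2 fold change was 1.45 ± 0.15 (SE, adjusted p = 0.00015) in the model group, with all model livers above all control livers. It fell by 1.46 with silibinin (adjusted p = 0.0002) and by 1.27 with phloridzin (adjusted p = 0.00054), with no overlap. Dnajc3, a chaperone that inhibits eIF2 kinases, was at 112.5 ± 7.34 FPKM in model livers and fell to 41.3 ± 4.34 in silibinin livers and 39.1 ± 1.17 in phloridzin livers (SD, n = 3 each; adjusted p = 4e-05 and 2.8e-05), without overlap. Control livers had 59.3 ± 0.305 FPKM of Dnajc3 (SD, n = 3), and all drug-treated livers were below all of them. The other kinases, Eif2ak1, Eif2ak2 and Eif2ak4, are named here after their values had been seen. They were not called, and their model means were 6.59 ± 2.62, 9.66 ± 0.642 and 3.34 ± 1.61 FPKM (SD, n = 3).

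Of 14 bZIP factors, 4 rose in the model group (28.6%, where 9.4% of all genes rose), namely Jun, Fos, Jund and Junb, the building blocks of AP-1. Jun had 1.80, 1.40 and 1.84 FPKM in control livers and 15.5, 22.8 and 18.8 FPKM in model livers, a log2 fold change of 2.89 ± 0.19 (SE, adjusted p = 1e-05). Fos rose by 2.47 ± 0.23 (adjusted p = 8.6e-05), Jund by 1.20 ± 0.11 (adjusted p = 0.0001) and Junb by 1.11 ± 0.30 (adjusted p = 0.016), each with all model livers above all control livers. With silibinin, Fos, Jun, Cebpd and Cebpb fell, by 2.19, 2.00, 1.29 and 1.13 on the log2 scale (adjusted p = 0.00021, 0.00013, 0.0075 and 0.0078), without overlap. With phloridzin, Fos, Jun, Cebpb and Jund fell, by 1.91, 1.81, 1.12 and 1.03 (adjusted p = 0.00056, 0.00027, 0.0085 and 0.00035), without overlap. With median-ratio scaling, Junb and Jund were not called in the model group (0.69 and 0.76), nor Cebpb with either drug (-0.91 and -0.94) or Jund with phloridzin (-0.85), and Cebpa was called lower in the model group (-1.21). Without model 2, Junb in the model group (0.81), Cebpb with silibinin and phloridzin (-0.87 and -0.86) and Jund with phloridzin (-0.97) were not called either. Junb also lost its call without control 2 (0.99), and Jund with phloridzin without model 3 (-1.0). Cebpb with phloridzin lost it with 2 groups in the fit (-1.12). Like Atf3, Jun was above every control liver with each drug, at 3.27 to 4.91 FPKM with silibinin and 3.50 to 5.58 FPKM with phloridzin.

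Of 18 genes of amino acid supply tested, 4 passed the filter through the model group alone. Of the other 14, 9 rose and 1 fell in the model group (64.3% and 7.14%, where 9.4% and 1.06% of all genes did). With silibinin, 1 rose and 7 fell, and with phloridzin 1 rose and 5 fell (50.0% and 35.7% lower, where 3.13% and 2.79% of all genes were). With median-ratio scaling, 6 rose and 1 fell in the model group, and 1 rose and 5 fell with each drug. Psat1, of serine synthesis, had 0.346, 0.113 and 0.275 FPKM in control livers and 19.0, 18.9 and 21.9 FPKM in model livers, a log2 fold change of 4.07 ± 0.47 (SE, adjusted p = 0.00023). It fell by 2.69 with silibinin (adjusted p = 0.0047) and by 2.55 with phloridzin (adjusted p = 0.0062), where phloridzin 1 remained at 7.57 FPKM. Slc7a11, the cystine importer that feeds glutathione synthesis, was at or below 0.0241 FPKM in control livers and at 5.21, 8.51 and 6.21 FPKM in model livers. With silibinin it was at 0.114 ± 0.0879 FPKM and with phloridzin at 0.134 ± 0.178 FPKM (SD, n = 3 each), and no p is given as it is one of those 4. Its partner chain Slc3a2 fell from 72.9 ± 15.8 FPKM in model livers to 15.3 ± 2.35 in silibinin and 19.7 ± 2.96 in phloridzin livers (SD, n = 3 each; adjusted p = 6.6e-05 and 0.0002). Aldh18a1, of proline synthesis, and the mitochondrial folate enzyme Mthfd2 rose in the model group by 2.52 ± 0.15 and 2.51 ± 0.18 (adjusted p = 4.6e-06 and 1.5e-05). Mthfd2 fell by 2.05 and 1.78 with silibinin and phloridzin (adjusted p = 7.4e-05 and 0.00019). In each of these comparisons, the groups did not overlap.

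The gene of this list with the opposite direction, named after its values had been seen, was Cth, which makes cysteine from cystathionine and is abundant in liver. It had 367, 393 and 263 FPKM in control livers, 158, 133 and 199 FPKM in model livers, 345, 407 and 591 FPKM with silibinin and 264, 698 and 708 FPKM with phloridzin. It fell by 1.05 in the model group (SE 0.37, adjusted p = 0.049), and rose by 1.43 with silibinin (adjusted p = 0.029) and by 1.65 with phloridzin (adjusted p = 0.017). All model livers were below all livers of the other groups. The fall in the model group is at the edge of the cutoffs, as its call was lost without any 1 of the 6 livers compared. With a drug, the call of Cth was lost without model 1 or model 2, among other livers. With no filter on low values, 0 of the other pathway genes were called lower in the model group against the control group.

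Of 13 genes of tRNA charging, 7 rose in the model group, 6 fell with silibinin and 7 fell with phloridzin (53.8%, 46.2% and 53.8%, where 9.4%, 3.13% and 2.79% of all genes did). With median-ratio scaling, 1 rose in the model group (Wars, 1.25), 2 fell with silibinin (Eprs and Sars) and 3 fell with phloridzin (Eprs, Wars and Nars). That is 7.69%, 15.4% and 23.1%, where 3.88%, 1.74% and 1.7% of all genes did. With voom, 6 rose, 4 fell with silibinin and 4 fell with phloridzin, the latter in each case Aars, Iars, Nars and Sars. That is 46.2%, 30.8% and 30.8%, where 16.9%, 4.63% and 3.92% of all genes did with voom. The genes of this list encode the synthetases that load tRNA with amino acids, and Xpot, the exporter of tRNA from the nucleus. In the model group, Wars, Xpot, Eprs and Cars rose by 1.59 ± 0.35, 1.38 ± 0.41, 1.32 ± 0.40 and 1.22 ± 0.20 (SE, adjusted p = 0.0059, 0.026, 0.026 and 0.0013), with no overlap with the control group. With silibinin, Eprs, Wars, Sars and Iars fell by 1.55, 1.22, 1.21 and 1.11 (adjusted p = 0.027, 0.041, 9.2e-05 and 0.00024). Wars is the one of these with overlap, since silibinin 2 had 4.88 FPKM and model 2 had 4.01 FPKM. With phloridzin, Eprs, Wars, Xpot and Nars fell by 1.60, 1.52, 1.43 and 1.19 (adjusted p = 0.025, 0.017, 0.047 and 0.0046), without overlap. Calls of Eprs, Wars and Xpot are the least firm of these. With voom, Eprs was not called in any comparison, Xpot not in the 2 where it is named, and Wars not with either drug. Eprs was also not called without any 1 of the 3 model livers, nor Xpot with phloridzin without any 1 of the 6 livers compared. In the model group, Xpot lost its call without any 1 control liver or without model 2. Wars lost its call with silibinin without model 1, model 3, silibinin 1 or silibinin 3. With phloridzin, Wars lost it without model 1, model 3, phloridzin 2 or phloridzin 3.

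Of 12 stress and death targets tested, Nupr1 and Tnfrsf10b passed the filter through the model group alone. Among the other 10, Gadd45a and Ero1l rose in the model group and fell with each drug, and Herpud1 fell with phloridzin. These are 2 of 10 higher in the model group and 2 and 3 of 10 lower with the drugs, where 9.4%, 3.13% and 2.79% of all genes were. Gadd45a, which responds to growth arrest and DNA damage, went from 1.67 ± 0.415 to 16.3 ± 2.35 FPKM in the model group (SD, n = 3 each), a log2 fold change of 2.70 ± 0.26 (SE, adjusted p = 0.00011). It fell by 2.53 with silibinin and by 2.35 with phloridzin (adjusted p = 0.00021 and 0.00037). Nupr1, a small stress-induced chromatin protein, was at 0.191 ± 0.182 FPKM in control, 6.05 ± 3.68 in model, 0.417 ± 0.216 in silibinin and 0.740 ± 0.373 in phloridzin livers (SD, n = 3 each), given with no p for the reason above. Ero1l, which oxidizes proteins in the endoplasmic reticulum, rose by 1.23 ± 0.12 (adjusted p = 0.0001) and fell by 1.20 and 1.15 with silibinin and phloridzin (adjusted p = 0.00015 and 0.00022). Herpud1, of the degradation of misfolded protein, fell by 1.15 ± 0.26 with phloridzin (adjusted p = 0.016). None of these groups overlapped. With median-ratio scaling, Ero1l (0.82, -0.99 and -0.97) and Herpud1 (-0.97) were not called, and Herpud1 was also not called without model 2, model 3 or phloridzin 1.

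In the remaining lists, few genes were called. Of 7 receptors and partners of FGF21 and GDF15 tested, Ppargc1a passed the filter through the silibinin group alone. Of the other 6, limma called 0 in each comparison, with 2, 1, 0 and 1 at an unadjusted p under 0.05 in the order model against control, silibinin against model, phloridzin against model and phloridzin against silibinin. Of all genes, 45.7%, 29.2%, 27.7% and 3.7% had such a p in this order. Fgfr4, a receptor of hepatocytes, was at 14.3 ± 0.372 FPKM in control, 17.8 ± 0.909 in model, 15.2 ± 2.01 in silibinin and 15.8 ± 3.23 in phloridzin livers (SD, n = 3). Ppara, which controls Fgf21 in fasting, varied from 4.74 to 61.7 FPKM between single livers. Of 13 genes of the mTORC1 arm, on which Sesn2 and Ddit4 act, limma also called 0 in each comparison, with 3, 4, 6 and 1 at an unadjusted p under 0.05 in the same order (23.1%, 30.8%, 46.2% and 7.69%, to be read against the shares just given). The median log2 difference of this list in the model group was 0.26, below the 0.34 of all genes. Mtor was at 6.84 ± 5.09 FPKM in control and 10.3 ± 1.72 FPKM in model livers, and Rptor at 8.97 ± 0.536 and 10.9 ± 0.207 FPKM (SD, n = 3 each).

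Of 5 genes of the glutathione arm, Gss, the last enzyme of glutathione synthesis, rose in the model group by 1.12 ± 0.29 (SE, adjusted p = 0.014), from 20.3 ± 0.838 to 45.3 ± 3.89 FPKM without overlap (SD, n = 3 each), and was not called with median-ratio scaling (0.68). Gss is 1 of the 5, where 9.4% of all genes rose. With the drugs, none of the 5 was called by limma. At an unadjusted p under 0.05, the count was 1 for silibinin against model and 0 for phloridzin against model. Of all genes, 29.2% and 27.7% had such a p in that order. Gclc, the first enzyme of that path, was at 196 FPKM in phloridzin 1 and at 37.1 and 25.7 FPKM in the other phloridzin livers. Of 4 genes related to Trib3, the kinase Akt2 rose by 1.04 ± 0.20 (adjusted p = 0.0034), from 12.5 ± 2.57 to 27.0 ± 6.96 FPKM without overlap (SD, n = 3 each), and was not called with median-ratio scaling (0.62), with voom (0.81), with coding transcripts alone (0.73) or without control 1 (0.92) or model 1 (0.85). This 1 gene is 25.0% of the list, where 9.4% of all genes rose. With the drugs Akt2 was at 14.3 ± 2.00 and 14.6 ± 2.31 FPKM, without overlap with the model group. Those log2 differences of -0.85 and -0.83 (adjusted p = 0.019 and 0.024) were short of the cutoff of -1. None of the 4 was called by limma with a drug, with 4 and 3 at an unadjusted p under 0.05, where 29.2% and 27.7% of all genes had one. After median-ratio scaling 1 and 1 had such a p (25.0% each), where 26.5% and 27.0% of all genes did.

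**Figure D4:**
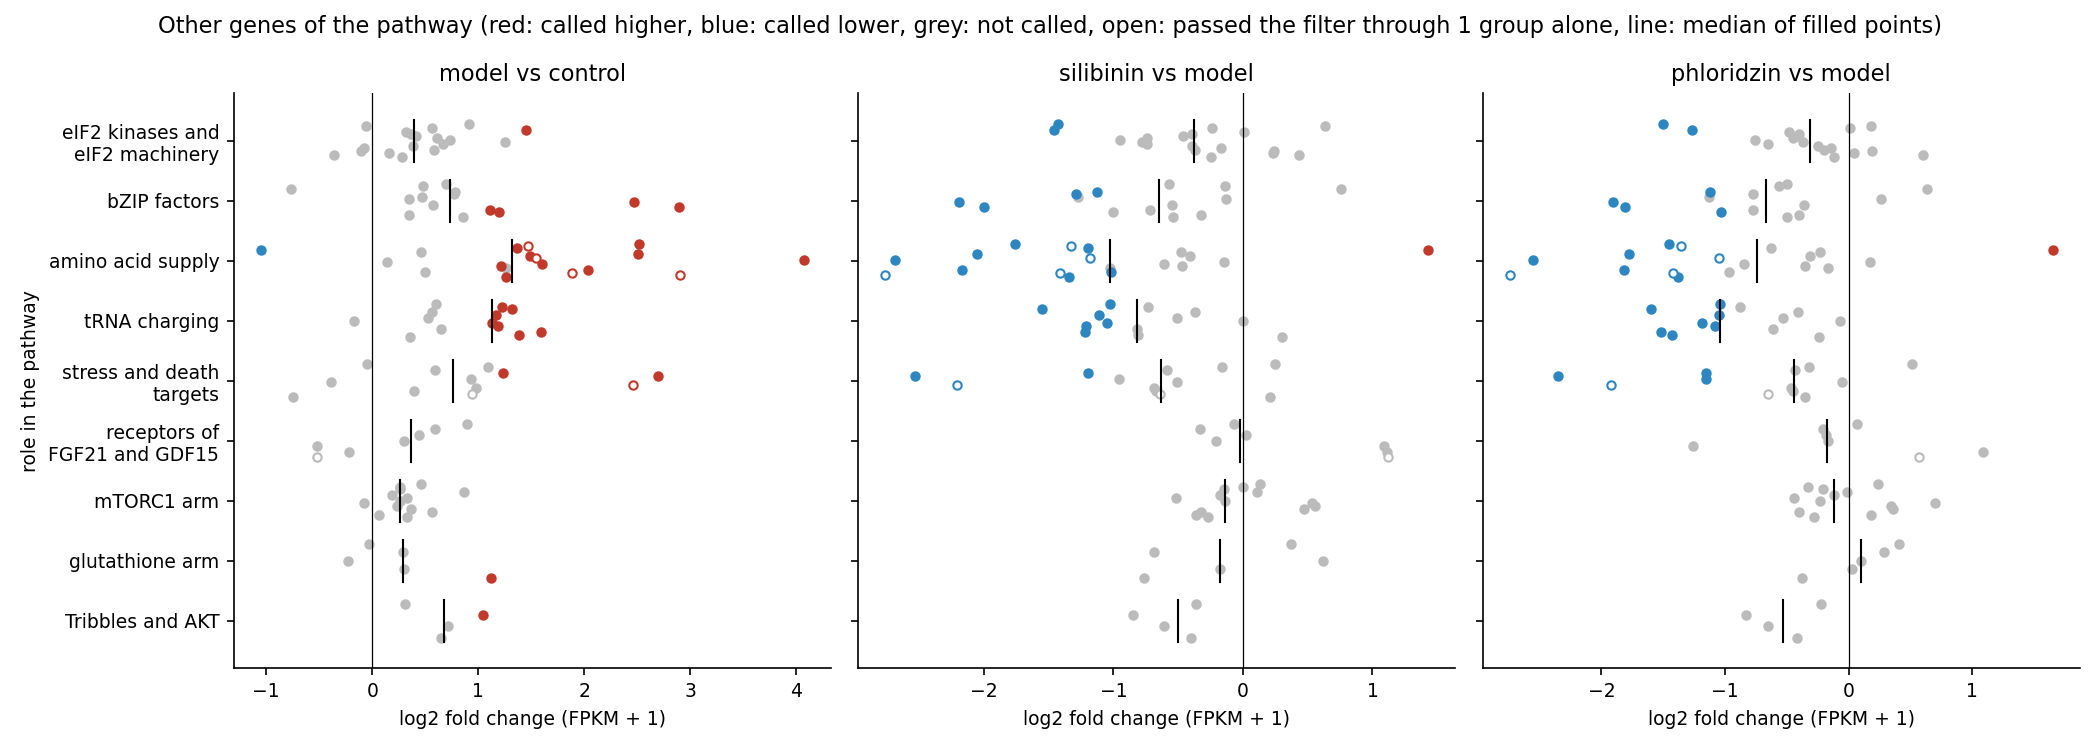
Log2 fold change of FPKM + 1 (horizontal axes) of the 104 other genes of the pathway, by role (vertical axis), in 3 comparisons. Each point is a gene, red if called higher, blue if called lower and grey if not called. Open points are the 7 genes that passed the filter through 1 group alone, and the black line is the median of the filled points. In the model group, 9 of the 14 filled points of amino acid supply are red, and the blue point there is Cth, which is the red point with each drug.

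Markers of other liver cells were read beside these genes, as the cell composition of fibrotic liver changes. Their part in the result was not tested, and their counts are to be read against the same shares of all genes. Of 7 markers of stellate cells and myofibroblasts, Lrat, Col1a1 and Col3a1 rose in the model group, and none was called against the model group with either drug. Their summed level was 31.7, 23.4 and 27.5 FPKM in control livers, 160.2, 132 and 169 FPKM in model livers, 162, 155 and 74.1 FPKM in silibinin livers and 216, 86.9 and 70.2 FPKM in phloridzin livers. Reln, at 14.51 ± 1.995 FPKM, was the most abundant of them in control livers (SD, n = 3). Col3a1, the most abundant over all 12 livers, was at 3.66 ± 0.397 FPKM in control, 61.6 ± 7.44 in model, 55.8 ± 25.6 in silibinin and 51.4 ± 40.2 in phloridzin livers (SD, n = 3 each). The sums of silibinin 1, silibinin 2 and phloridzin 1 were within or above the range of the model livers, and those of silibinin 3, phloridzin 2 and phloridzin 3 were between the model and control livers. In all of these livers Atf3 and Trib3 were far below the model level. Among the 6 drug-treated livers, Atf3 was higher in the 3 with the higher sums (2.43, 2.24 and 3.24 FPKM in silibinin 1, silibinin 2 and phloridzin 1) than in the other 3 (0.934, 1.50 and 1.51 FPKM). So was Gdf15 (3.24, 3.59 and 3.75 against 2.40, 2.94 and 1.39 FPKM). Trib3 overlapped between these sets of livers (5.00, 4.25 and 4.70 against 3.43, 4.89 and 5.36 FPKM). The same holds for Atf4, Ddit3, Chac1, Sesn2, Ddit4, Fgf21 and Ppp1r15a. This split of the livers was made after their values had been seen. The share of all genes that separate in this way was not counted, so nothing is read from the split. A link to the marker sums was not tested.

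Of 8 macrophage markers, Lyz2 and Gpnmb rose in the model group and none was called with a drug. Their sum was 127, 229 and 180.3 FPKM in control, 353, 541 and 478 FPKM in model, 432, 537 and 377 FPKM in silibinin and 664, 610.0 and 336 FPKM in phloridzin livers. Lyz2, the most abundant over all 12 livers, was at 54.4 ± 20.2, 238 ± 52.4, 247 ± 54.3 and 268 ± 98.7 FPKM in the 4 groups in that order (SD, n = 3 each), and in control livers the mean of Cd5l was above it, at 72.93 ± 24.45 FPKM. Of 3 lymphocyte markers tested, Ptprc rose from 5.36 ± 0.788 to 17.8 ± 2.51 FPKM in the model group and was at 13.5 ± 2.18 FPKM in silibinin and 16.4 ± 3.17 FPKM in phloridzin livers (SD, n = 3 each). The sum of the 5 listed was 5.45, 7.51 and 7.16 FPKM in control, 17.3, 23.6 and 23.1 FPKM in model, 12.6, 18.0 and 17.7 FPKM in silibinin and 26.2, 20.5 and 16.1 FPKM in phloridzin livers, and Cd79a and Cd8a were too low to be tested. Ptprc made up 78.4% to 83.9% of the mean of this sum by group, so the sum largely follows this gene. Cd3e and Nkg7 were not called, and no rise of lymphocytes is read from these values. Of 4 neutrophil markers tested, Retnlg rose in the model group (2.50 ± 1.04 to 7.05 ± 2.69 FPKM) and fell with silibinin (2.24 ± 1.54 FPKM, SD, n = 3 each), and neither call was kept with median-ratio scaling, with no filter or without model 2 or model 3. The sum of the 5 listed was 22.0, 8.34 and 23.2 FPKM in control, 29.1, 74.0 and 46.3 FPKM in model, 18.8, 27.6 and 10.9 FPKM in silibinin and 24.0, 83.1 and 39.8 FPKM in phloridzin livers. S100a8 was its most abundant gene over all livers, Ly6g was too low to be tested, and S100a9 is listed at 0 in 7 livers.

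Of 3 cholangiocyte markers tested, Spp1 rose from 11.4 ± 2.78 to 45.9 ± 3.83 FPKM in the model group and was at 35.1 ± 15.6 and 29.0 ± 15.4 FPKM with silibinin and phloridzin (SD, n = 3 each). The sum of the 5 listed was 11.3, 13.0 and 16.7 FPKM in control, 46.2, 55.6 and 50.2 FPKM in model, 47.9, 48.7 and 24.1 FPKM in silibinin and 52.7, 26.8 and 25.7 FPKM in phloridzin livers, and the defining markers Krt7 and Epcam were too low to be tested. Spp1 made up 82.8% to 90.6% of the mean of this sum by group, so the sum largely follows this gene. Krt19 and Sox9 were not called, though voom called Krt19 higher in the model group. None of 6 endothelial markers was called by limma in the model group, where 1 had an unadjusted p under 0.05, and their sum was 56.8, 56.3 and 66.1 FPKM in control, 62.1, 76.9 and 65.3 FPKM in model, 43.8, 77.4 and 31.2 FPKM in silibinin and 77.6, 84.6 and 58.5 FPKM in phloridzin livers. Clec4g was the most abundant of them over all livers. None of the 6 hepatocyte markers was called, with 0 at an unadjusted p under 0.05. After median-ratio scaling, limma again called 0 of them, with 3 at such a p in the model group and a median log2 difference there of -0.41 in place of 0.03. The 3 are 50.0% of the list, where 37.2% of all genes had such a p under this scaling. The sum of the 6 hepatocyte markers ranged from 14530 to 33670 FPKM over the 12 livers.

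**Figure D5:**
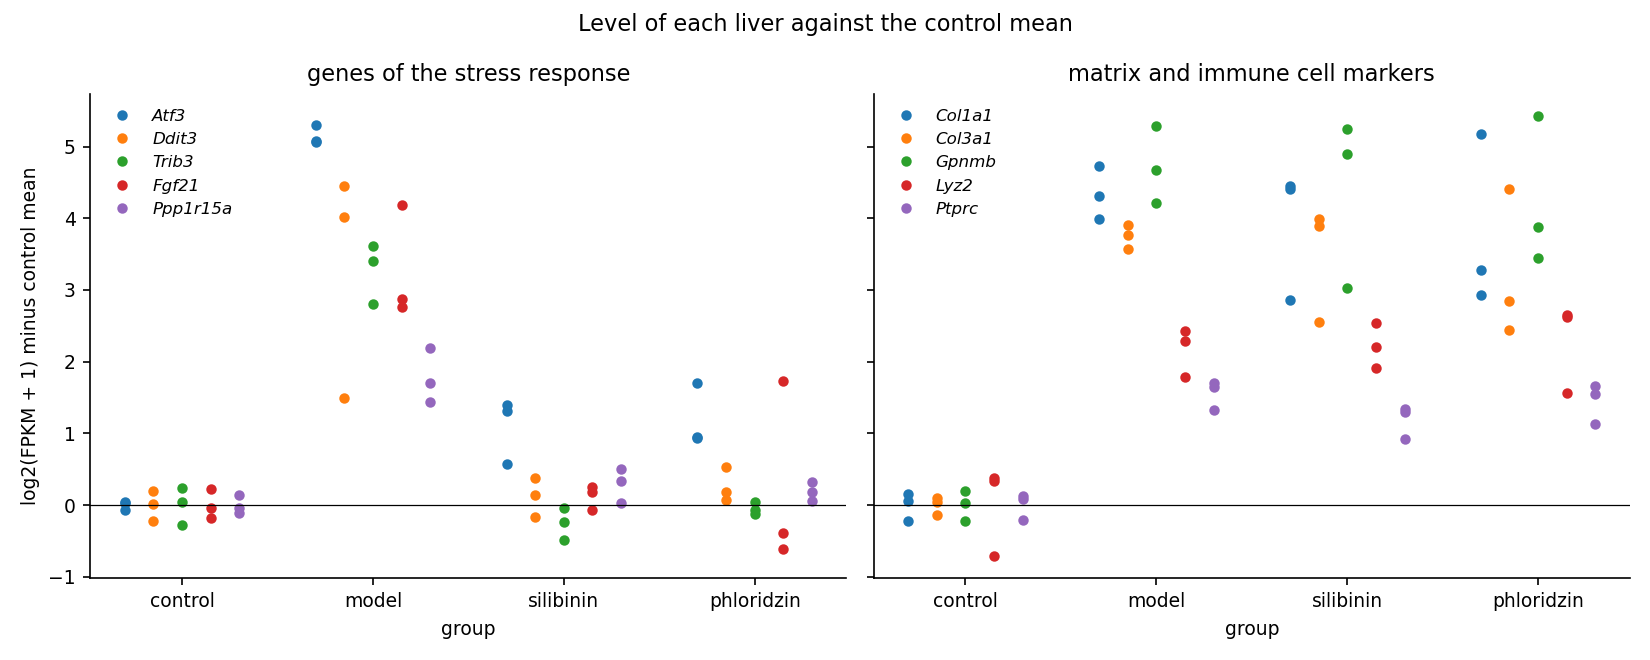
Level of each liver as log2(FPKM + 1) minus the control mean (vertical axis), by group (horizontal axis), for 5 stress response genes (left) and 5 matrix and immune cell markers (right). Points are livers. The genes on both sides are a selection. Not shown on the left are Chac1 and Gdf15, nor Atf4, Sesn2 and Ddit4, which overlap with the model group under a drug. Not shown on the right is Retnlg, called lower with silibinin. On the left, most points of the drug groups are near 0, but those of Atf3 are above every control liver. On the right, the drug groups differ by marker and liver. Lyz2 has means of 247 and 268 FPKM with silibinin and phloridzin and 238 FPKM in the model group, while 3 of the 6 drug-treated livers are below every model liver for Col3a1 (24.2 to 32.5 FPKM) and for Col1a1 (16.2 to 22.0 FPKM).

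Last, the genes whose pattern was most like that of Atf3 were sought over all 12 livers. The measure is the root mean square difference of log2(FPKM + 1) after each gene's own mean is taken off, so that a lower value is a closer pattern. Outside the members, the 6 closest genes were Tnfrsf12a (0.594), Sprr1a (0.611), Psat1 (0.639), Cd14 (0.685), Hid1 (0.741) and S100g (0.763). Tnfrsf12a, the receptor of the cytokine TWEAK, had 2.75 ± 1.04 FPKM in control livers (SD, n = 3), 30.9, 53.7 and 56.0 FPKM in model livers, 3.96, 4.23 and 3.37 FPKM in silibinin livers and 4.77, 2.49 and 2.83 FPKM in phloridzin livers. Sprr1a, a protein of the cornified envelope, had 33.8, 58.9 and 28.4 FPKM in model livers, is listed at 0 in all control livers and did not exceed 0.292 FPKM with a drug. It passed the filter through the model group alone. Cd14, a receptor for bacterial lipopolysaccharide, was at 1.45 ± 0.395 FPKM in control, 27.7 ± 7.28 in model, 3.28 ± 0.622 in silibinin and 2.86 ± 0.711 in phloridzin livers (SD, n = 3 each). Among the members, Trib3 (0.750) and Fgf21 (0.829) were closest to Atf3, then Ddit3 (0.953), Gdf15 (1.25), Ppp1r15a (1.32), Chac1 (1.41), Atf4 (1.51), Ddit4 (1.57) and Sesn2 (1.79). This order follows in large part the size of the change, since the measure keeps the scale.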

How the data were processed

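Total RNA of 12 mouse livers was sequenced on an Illumina NovaSeq from NEB Next Ultra libraries. The processing notes of the submitters name bcl2fastq, FastQC 0.11.5, HISAT2 2.1.0, StringTie 1.3.3b, DESeq 1.28.0 and the build mm10, with no order or role. The authors deposited 1 table of FPKM values, with 169430 transcripts and 1 column for each liver, scaled by transcript length and library size with no correction for composition. No label states the unit, which the numbers themselves show. Long transcripts (1500 bases or more) had values that, times their length, were whole multiples of 1 step per library (98.7% to 98.9% of low values within 0.05), and this step gave the numbers of fragments. All columns were matched to a liver. Of the Ensembl transcripts, 98.1% had the position of GENCODE M21, and 51.5% of all transcripts have no gene symbol and were left out.

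The members and the gene lists were chosen with earlier results of these data known. FPKM was summed per symbol and liver. Genes with a mean of at least 0.5 FPKM were tested on log2(FPKM + 1) by limma 3.58.1 with a trend (R 4.3.3), with all 12 livers in 1 fit, 4 comparisons, two-sided tests and Benjamini-Hochberg adjustment over all 13158 genes. The study's DESeq test was not run here. The fit was tested on simulated data, and no outcome of that is used here. The rule for naming took the members, the 6 genes closest to Atf3, and the most abundant and the first 3 markers of each cell type. In each list and comparison it also took up to 4 called genes by size of the log2 fold change, or else the 2 most abundant. This part gave 41 genes. Not all genes of the rule appear in the text, such as Atf5, Ppp1ca and Akt1 or the markers Des and Pecam1. Other genes are named because of their values, such as the called markers Col1a1, Gpnmb and Retnlg. Intervals are at 95%. Intervals and floors cover counting error or the spread of livers only. Python 3.11.15 with numpy 2.4.6, pandas 2.3.3 and matplotlib 3.10.9 was used for the sums, the search of promoters and the plots. Alternatives were a pseudocount of 0.1, no filter, scaling by median ratios, 2 groups in the fit, a replicate block, Ensembl transcripts alone and each liver left out. Coding transcripts alone and voom on recovered fragments were added after the data were seen. Leaving out transcripts without an Ensembl name changes nothing, as all transcripts with a symbol have one.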

Additional observations from a re-analysis of the deposited data

Results flagged for a closer look

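A noncoding transcript without a gene symbol, NONMMUT008077.2, lies on the same strand as Ddit3 (chr10:127290797-127292445) and was left out of the level of Ddit3. It was above the control level in the model group. It had 5.90, 5.92 and 6.58 FPKM in the model livers, a mean of 6.13 ± 0.384, against 1.10 ± 0.114 FPKM in the control livers (SD, n = 3 each). Model 1, in which the coding transcript Ddit3-201 was at 0.0134 FPKM, had a level like the other model livers. With silibinin it was at 1.13 ± 0.404 FPKM and with phloridzin at 0.993 ± 0.232 FPKM (SD, n = 3 each). It overlaps with transcripts of Ddit3, and how fragments were divided between them was not tested.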

How the results depend on the processing

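The counts of genes called kept within 1.5 times their value in most settings, and the exceptions follow. For model against control, all genes called went from 1382 to 2596 with a pseudocount of 0.1 and to 2534 with voom, and other pathway genes called from 31 to 18 with median-ratio scaling. For silibinin against model, all genes called went from 526 to 795 with voom, and for phloridzin against model from 463 to 702 with a pseudocount of 0.1. For phloridzin against silibinin they went from 3 to 0 with 2 groups in the fit. The causes were not tested. Counts of other pathway genes in this section include the 7 that passed the filter through 1 group alone. With 1 liver left out, all genes called ranged from 1242 to 1462, 422 to 565, 368 to 641 and 1 to 5 in the 4 comparisons. The last count was 5 without silibinin 1 or phloridzin 2 and 1 without silibinin 2 or phloridzin 3. Members called ranged from 8 to 9, 7 to 9, 8 to 8 and 0 to 0, and other pathway genes from 27 to 31, 21 to 27, 20 to 28 and 0 to 0. Of the log2 differences of members, 310 kept the call or the lack of one in the other settings, 9 lost the call and 1 gained it. With a liver left out these numbers were 232, 4 and 4. No called value changed direction there. Differences between the drugs, none of them called, did so for Atf3, Fgf21, Gdf15 and Ddit4. The gained and lost calls are given with the genes above.

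With the replicate number of the titles as a replicate block, all genes called were 1363, 508, 449 and 3, members called 9, 7, 8 and 0, and other pathway genes called 30, 26, 26 and 0. Livers with the same number share no other label, and correlations of the same-number pairs were between -0.091 and 0.101. With 3 livers a group, depth limits only genes of few fragments, such as Fgf21 outside the model group and Atf3 in control livers.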
